A study of Mus musculus with 12 samples.

Results

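Cytokine receptor transcripts were examined in PD-1+CD44+CD8+ T cells of lupus-prone mice. The 10 genes were chosen by name from 18992 genes listed in the data, with earlier results of these data known. They encode the IL-7 receptor chain (*Il7r*), the 3 chains of the IL-2 receptor (*Il2ra*, *Il2rb* and *Il2rg*), the IL-21 and IL-4 receptor chains (*Il21r* and *Il4ra*), both chains of the IL-6 receptor (*Il6ra* and *Il6st*) and both chains of the IL-18 receptor (*Il18r1* and *Il18rap*). All 10 were found in each of the 3 libraries.

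The cells came from female NZB/W F1 mice, hybrids of the NZB and NZW strains in which a lupus-like nephritis appears with age. PD-1+CD44+CD8+ T cells were sorted from the spleens of 12-week-old mice (12W spleen) and from the spleens and kidneys of 28-week-old mice (28W spleen and 28W kidney), with no treatment named in the labels, to compare these cells across disease stages and organs. Collagenase digestion is described for kidney and not for spleen, so organ and tissue handling cannot be told apart. The age label of the 28W spleen samples reads 12 weeks, and their group was read from the titles. The labels list 12 samples, 4 for each group, whose titles differ within a group only in the number at their end. The titles do not say what that number stands for, so the 4 need not be separate animals. The tables pool the 4 samples, so each group was 1 library with no replicate, and the number of mice behind it is not stated.

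Most of these receptors are built from a private chain that binds the cytokine and a shared chain that signals. The common gamma chain, encoded by *Il2rg*, serves the receptors for IL-2, IL-4, IL-7 and IL-21, and signals through JAK kinases and STAT factors. The IL-6 receptor pairs a binding chain with gp130, the product of *Il6st*, which also serves other cytokines of that family, and the IL-18 receptor joins a binding chain to an accessory chain and signals through MyD88. In CD8+ T cells, IL-7 is known for the survival of naive and memory cells, IL-2 for clonal expansion, and IL-18, with IL-12, for production of interferon gamma.

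The 3 libraries held 6481 to 7135 cells and between 29937384 and 34742303 unique molecular identifiers (UMIs), each of which marks 1 captured transcript. Levels are given as UMIs per 1000000 (CPM) of a library or of a cluster, and an interval is a 95% exact interval that covers counting error only. The authors split the libraries into 10, 11 and 12 clusters, numbered within each library. The defining transcripts of CD8+ T cells were present in all 3 libraries, and the 8 genes of that list, *Cd8a*, *Pdcd1* and *Cd44* among them, summed to 4740 to 6186 CPM. Of 33 clusters, 8 carried many transcripts of other cell types (B cells, myeloid cells, neutrophils, kidney tubule or red cells), namely cluster 3 of 12W spleen, clusters 8 and 10 of 28W spleen and clusters 2, 7, 8, 11 and 12 of kidney. Another 7, some of them the same clusters, had under 50% of the mean UMIs per cell of their library, and among these cluster 8 of 12W spleen, cluster 11 of 28W spleen and cluster 2 of kidney had 8.98%, 6.64% and 10.8% mitochondrial UMIs. Between 52 and 66 cell barcodes were shared by a pair of libraries.

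Of 10 receptor genes, 4 lie in neighbouring pairs in the genome, among them *Il18r1* and *Il18rap*, which were both higher with age. *Il18r1* (GRCm38, chr1:40465552-40500854) and *Il18rap* (chr1:40515362-40551705) are on the plus strand with 14507 bases and no annotated gene between them. *Il4ra* (chr7:125552120-125579474) and *Il21r* (chr7:125603429-125633570) are likewise neighbours on the plus strand, 23954 bases apart. *Il6ra* is on chromosome 3 and *Il6st* on chromosome 13.

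The 250 bases before the transcription start are shown for both IL-18 receptor genes, which were higher with age, and for both IL-6 receptor genes, which differed with age in opposite directions. The sequences are from RefSeq (GRCm38.p6), 5′ to 3′ on the strand of the gene, and capitals mark GGAAGT or its reverse complement, the core of an ETS factor element. *Il18r1* has 3 starts listed and the most upstream was used.
*Il18r1* promoter, chr1:40465302-40465551 (plus strand): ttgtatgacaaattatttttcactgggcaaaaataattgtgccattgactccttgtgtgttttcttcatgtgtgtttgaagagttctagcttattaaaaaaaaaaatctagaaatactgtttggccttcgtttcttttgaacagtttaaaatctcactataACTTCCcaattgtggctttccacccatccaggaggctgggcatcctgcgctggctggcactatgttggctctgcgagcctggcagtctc
*Il18rap* promoter, chr1:40515112-40515361 (plus strand): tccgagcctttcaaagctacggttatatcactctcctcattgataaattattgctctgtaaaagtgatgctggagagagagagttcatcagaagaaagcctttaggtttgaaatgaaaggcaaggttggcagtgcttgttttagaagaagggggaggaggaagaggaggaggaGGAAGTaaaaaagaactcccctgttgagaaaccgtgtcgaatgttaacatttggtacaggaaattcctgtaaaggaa
*Il6ra* promoter, chr3:89913197-89913446 (minus strand): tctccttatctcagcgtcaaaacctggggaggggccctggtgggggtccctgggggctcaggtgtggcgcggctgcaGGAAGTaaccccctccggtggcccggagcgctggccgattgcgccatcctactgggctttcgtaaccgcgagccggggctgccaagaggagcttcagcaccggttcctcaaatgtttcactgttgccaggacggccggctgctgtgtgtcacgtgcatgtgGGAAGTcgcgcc
*Il6st* promoter, chr13:112463820-112464069 (plus strand): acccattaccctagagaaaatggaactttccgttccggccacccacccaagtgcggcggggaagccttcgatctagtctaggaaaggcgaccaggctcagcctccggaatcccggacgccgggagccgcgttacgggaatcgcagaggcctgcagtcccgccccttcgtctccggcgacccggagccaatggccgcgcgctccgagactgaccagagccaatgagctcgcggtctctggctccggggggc

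Promoters were found for 9 of the 10 genes, and 5 motifs were searched on both strands. GGAAGT was in the windows of *Il18r1*, *Il18rap*, *Il6ra*, *Il7r* and *Il2ra*, and in 19.7% of all 32851 promoter windows of the same length. The spacing differed between the IL-18 receptor genes, with the match at -89 to -84 from the start on the minus strand in *Il18r1* and at -77 to -72 on the plus strand in *Il18rap*. The STAT dimer motif TTCNNNGAA, present in 7.02% of windows, was found in *Il7r* alone, at -142 to -134. The T-box motif GTGTGA (12.3% of windows) was likewise in *Il7r*, at -108 to -103 on the minus strand. The RUNX motif TGTGGT (14.05%) was in *Il2rg* and *Il21r*, and in *Il21r* it overlapped by 2 bases a match to the FOXO motif GTAAACA (3.17%). The windows of *Il6st* and *Il4ra* held none of these letters, which says nothing of binding elsewhere.

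With age, transcripts of both IL-18 receptor chains were higher by more than 2-fold. *Il18r1* stood at 16.5 CPM in the 12W library and 47.8 in the 28W spleen library, and *Il18rap* at 4.98 and 13.7. No receptor was lower by 2-fold, and the nearest were *Il6st* and *Il4ra*. The share of all 12412 genes tested that were at least 2-fold higher was 1.84%, against 2 of 10 receptors, and 0.935% were at least 2-fold lower. The median log2 ratio of the 10 receptors, after adding 1 CPM to each level, was 0.06, beside -0.08 for all genes.

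In kidney, *Il7r*, *Il6ra* and *Il6st* were lower by more than 2-fold than in 28W spleen. *Il7r* was at 348 CPM in 28W spleen and 161 in kidney, though less than 2-fold lower without clusters of other cell types, *Il6ra* at 35.01 and 13.5, and *Il6st* at 25.6 and 11.9. This was 3 of 10 receptors, where 1.23% of all 13189 genes tested were lower by that much. None of the 10 was 2-fold higher, while 8.77% of all genes were. The median of the receptors was -0.16, beside 0.11 for all genes. The age and organ comparisons share the 28W spleen library, so their values are set side by side and are not independent. None of these differences has a test, as each group is a single library, and fewer cells of a type cannot be told apart from less RNA per cell in a library sum.

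**Figure D1:**
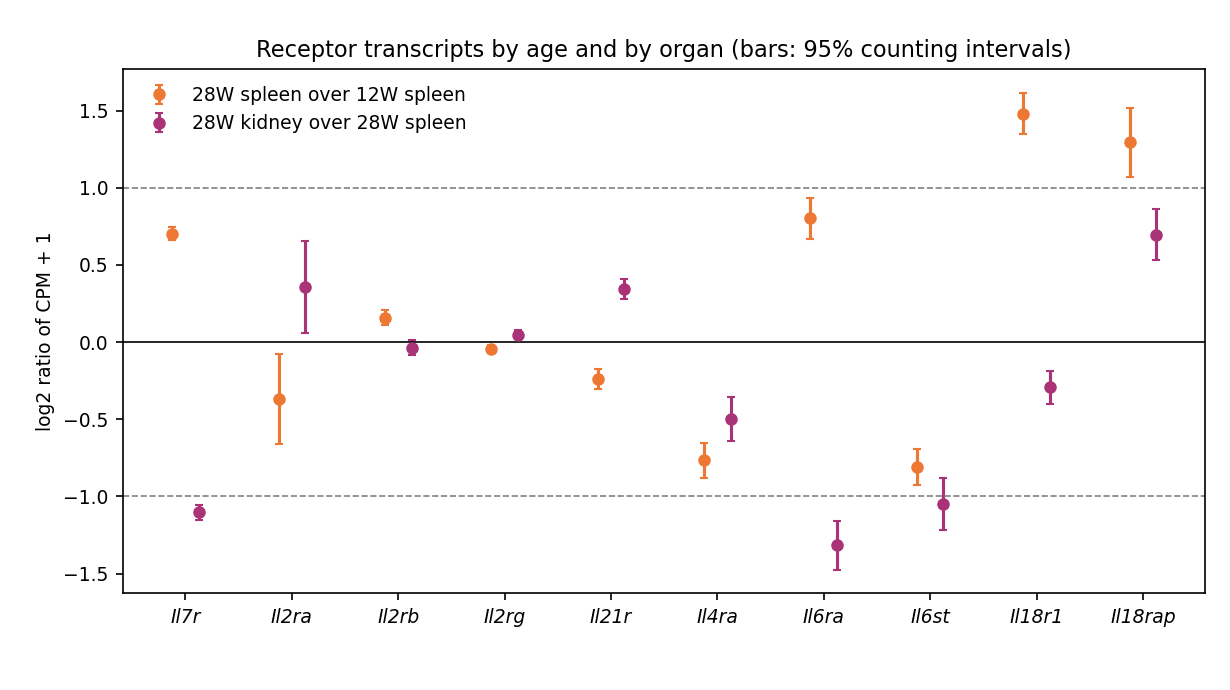
Log2 ratios (CPM + 1) of the 10 receptor genes for 28W spleen over 12W spleen (orange) and 28W kidney over 28W spleen (purple), with 95% counting intervals as bars and 2-fold changes as dashed lines. *Il18r1* and *Il18rap* lie above the upper line by age, and *Il7r*, *Il6ra* and *Il6st* below the lower line by organ.

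Receptor transcripts differed between clusters within each library. The highest cluster exceeded the lowest by at least 4-fold for 8 of 10 receptors at 12W, 9 of 10 in 28W spleen and 7 of 10 in kidney. By the nearest limits of the counting intervals it did so for 6, 4 and 2 of 10. Among genes at 10 CPM or more, the share past 4-fold was 53.4% at 12W, 42.6% in 28W spleen and 38.1% in kidney, and of the receptors at that level it was 6 of 8, 8 of 9 and 7 of 9. The median fold over the receptors at that level was 9.67, 8.27 and 4.76, beside 4.24, 3.57 and 3.40 for all such genes. Without the 5 kidney clusters with other cell types, 2 receptors were past 4-fold in kidney. For *Il2ra* the lowest clusters of 28W spleen had no UMI, so its fold there depends on the pseudocount. The authors' clusters were made from these same cells and genes, so the differences between clusters are descriptions. Neighbours in the order of 33 clusters mostly had overlapping intervals, in 28 of 32 neighbouring pairs for *Il7r* and in 30 to 32 for each of the other receptors.

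**Figure D2:**
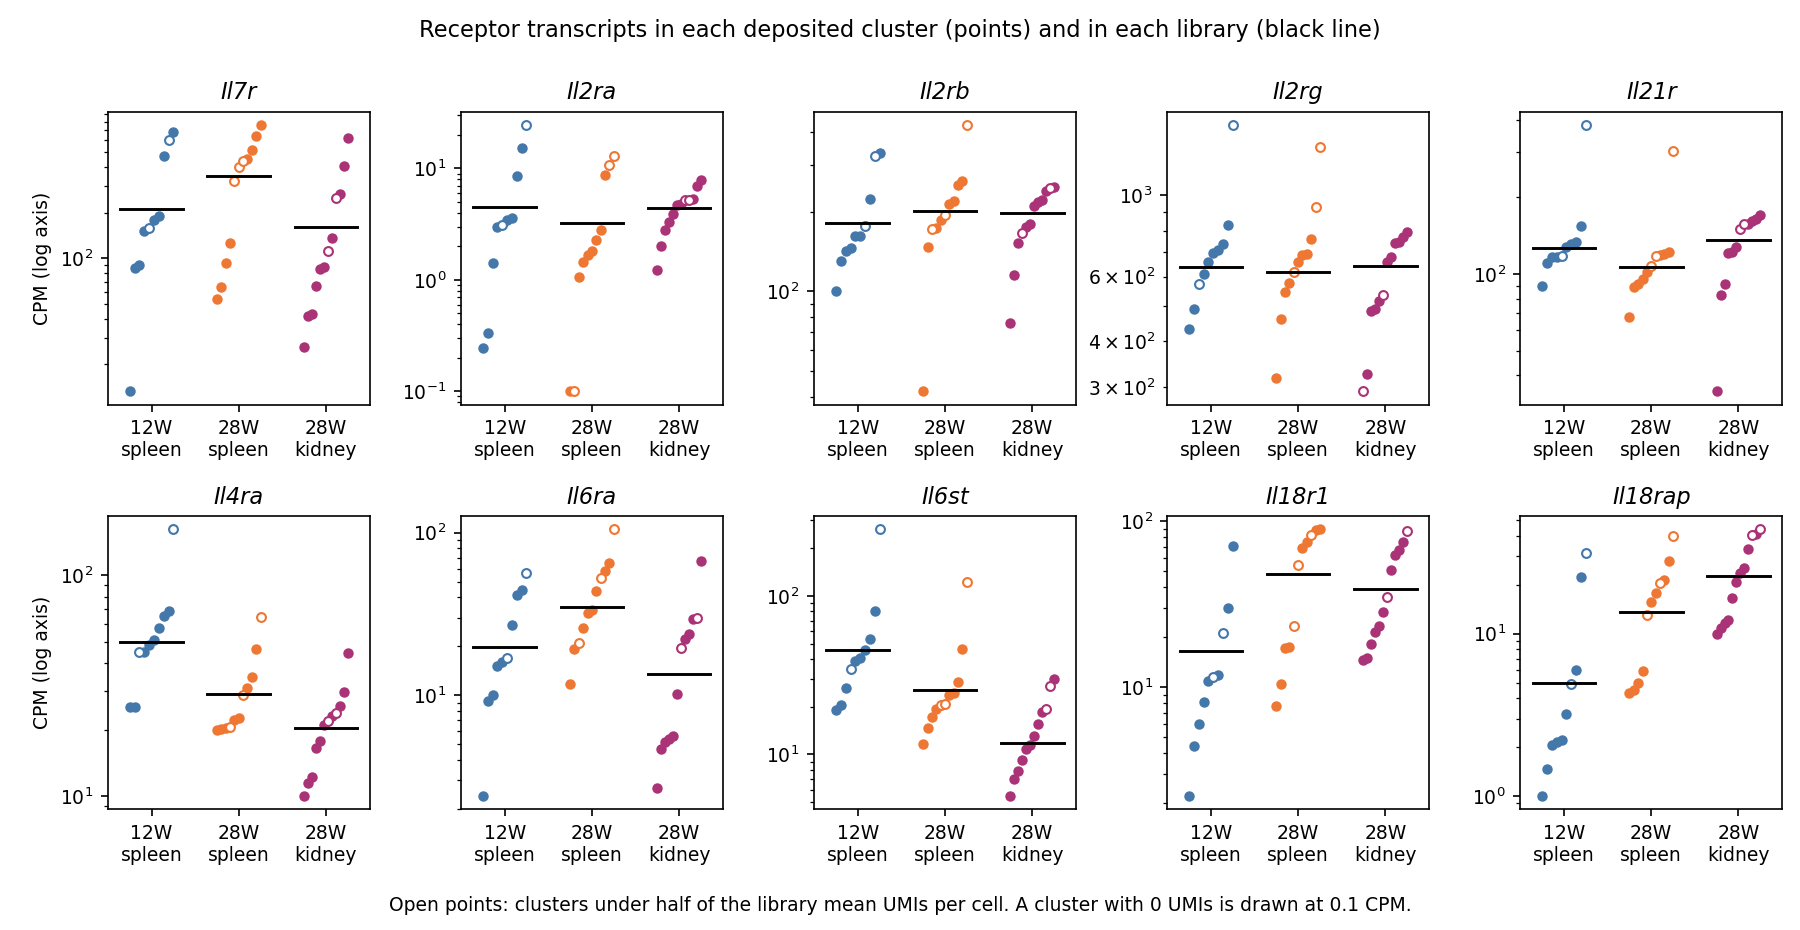
CPM (log axis) of each receptor gene in every cluster (points, ordered by level) and in the whole library (black line), with open points for clusters under 50% of the library mean UMIs per cell and clusters with no UMI drawn at the bottom. *Il7r* spans 13.2 to 685 CPM over the clusters of 12W spleen, whereas *Il2rg* spans 432 to 1552.

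*Il7r* encodes the IL-7 receptor alpha chain, which in CD8+ T cells is kept by naive and memory cells and lost on activation. Its library level was 213 CPM at 12W in spleen, 348 at 28W in spleen and 161 in kidney. The log2 ratio was 0.70 by age (interval 0.66 to 0.75) and -1.10 by organ (interval -1.15 to -1.05). Over the clusters of 12W spleen the lowest, median and highest levels were 13.2, 169 and 685 CPM. The same 3 values were 54.0, 401 and 759.9 CPM in 28W spleen and 25.9, 99.8 and 624 CPM in kidney. The range within each library was thus wider than the difference between libraries.

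The cluster with the most *Il7r* in 12W spleen was cluster 2, led by *Ccl5*, *S100a6* and *Gzmk*, which held 16.2% of the cells and 35.8% of the *Il7r* UMIs. The lowest was cluster 7, led by *Xcl1*, *Ccl4* and *Tnfrsf9*, genes of recently activated T cells. In 28W spleen the highest was cluster 4, led by the interferon-stimulated genes *Ifit3*, *Rsad2* and *Ifit3b*, and the lowest was cluster 6, led by the cell cycle genes *Pclaf*, *Hist1h2ap* and *Birc5*. In kidney, clusters 5 and 9 had 624 and 404 CPM and *Il7r* was itself the first leading gene of both, beside *Tdrp* and *Dapl1* in cluster 5 and *Nsg2* in cluster 9. These 2 clusters held 8.84% and 7.19% of the kidney cells and 27.9% and 20.03% of the *Il7r* UMIs. Cluster 1, the most numerous in kidney and led by *Gzmb*, *S100a4* and *S100a6*, had 42.7 CPM, and the cycling cluster 11 was the lowest.

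Clusters of different libraries were set side by side where they shared at least 3 of their 10 leading genes, a rule chosen after the data were seen. It gave 12 pairs, 6 of them between the spleen libraries and 5 between 28W spleen and kidney, and no receptor was among the shared genes. Cluster 3 of 12W spleen was paired with both cluster 8 and cluster 10 of 28W spleen, so the pairs by age are not all separate. *Il7r* was lower at 28W in 5 of 6 pairs by age, and in 4 of 4 pairs in which neither cluster carried other cell types. The largest cluster of 12W spleen, cluster 1, led by *Sox4*, *Kcnc1* and *Myb*, had 151 CPM, and its pair in 28W spleen, cluster 3, had 93.8 CPM. The *Ccl5* and *Gzmk* clusters had 685 CPM at 12W and 454 at 28W (log2 ratio -0.59, interval -0.67 to -0.51), and the cycling clusters had 90.0 and 54.0 CPM (-0.73, interval -0.96 to -0.50). The library level was nonetheless higher at 28W, so for *Il7r* the library and most paired clusters moved in opposite directions with age. The pairs leave out clusters 1, 4, 5, 7 and 9 of 28W spleen and clusters 4, 5, 6, 7 and 9 of 12W spleen. None of these matched a cluster of the other spleen library. In 28W spleen, clusters 1, 4 and 5 held 25.4%, 24.3% and 16.4% of the *Il7r* UMIs, and clusters 7 and 9 held 3.08% and 1.57%. In 12W spleen, clusters 4, 5 and 6 held 14.8%, 10.5% and 12.0%, and clusters 7 and 9 held 0.892% and 2.39%.

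Between spleen and kidney *Il7r* was lower in 4 of 5 paired clusters, and the exception was the pair with B cell genes. *Il7r* was at 454 CPM in cluster 2 of 28W spleen and 42.7 in kidney cluster 1, with which it shares *Gzmb*, *S100a4*, *S100a6* and *Ccr2* (10.4-fold lower in kidney, log2 ratio -3.38, interval -3.59 to -3.18). The interferon-stimulated clusters had 759.9 CPM in spleen and 41.9 in kidney, 17.7-fold lower (log2 ratio -4.15, interval -4.48 to -3.84). The cycling clusters had 54.0 and 25.9 CPM, a log2 ratio of -1.03. Leaving out the 2 spleen and 5 kidney clusters with other cell types moved the library ratio by organ to -0.77 (354 and 207 CPM). *Il7r* was then no longer 2-fold lower. That step also removed T cell transcripts, since kidney clusters 7 and 11 had 4498 and 5543 CPM of the summed CD8+ T cell genes. Leaving out 1 cluster at a time gave library ratios by organ of -1.46 to -0.87. The 2-fold call ended without cluster 1 or 4 of 28W spleen or cluster 1 or 11 of kidney. By age the same range was 0.47 to 1.17, the upper end without cluster 2 of 12W spleen.

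*Il2rg*, the shared signalling chain, hardly differed between libraries. The levels were 638 CPM at 12W, 618 at 28W and 639 in kidney, with log2 ratios of -0.05 by age and 0.05 by organ. The sign of both ratios flipped under other scalings, to 0.05 by age and -0.04 by organ when libraries were scaled to the median gene. Its clusters ranged from 432 to 1552 CPM at 12W, from 318 to 1351 in 28W spleen and from 293 to 792 in kidney. The highest value in each spleen library was in a low-RNA cluster, cluster 8 of 12W spleen and cluster 11 of 28W spleen, whose part in these ranges was not tested beyond leaving them out.

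*Il2rb*, the beta chain of the IL-2 and IL-15 receptors, was also near level between libraries, at 181, 202 and 197 CPM. Its log2 ratio was 0.16 by age (interval 0.11 to 0.21) and -0.04 by organ (interval -0.09 to 0.02), and the latter was 0.11 without clusters of other cell types. Cluster 2 of 12W spleen had 335 CPM and the *Xcl1* cluster 7 had 100.3, the highest and lowest there. In kidney the highest was 248 CPM in cluster 3, led by *Crot*, *Rbl2* and *Padi2*, and the lowest was 76.1 in cluster 12, led by the neutrophil genes *S100a9*, *S100a8* and *Ngp*. The cluster of 28W spleen with B cell and myeloid genes, cluster 10, had 41.9 CPM.

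*Il2ra*, the alpha chain that raises affinity for IL-2 and appears on activation, was rare. Its 156 UMIs in 12W spleen came to 4.49 CPM, its 104 UMIs in 28W spleen to 3.25 CPM and its 133 UMIs in kidney to 4.44 CPM. In 12W spleen 48.7% of its UMIs lay in the *Xcl1* cluster 7, at 15.2 CPM, and in 28W spleen 53.8% lay in the cycling cluster 6, at 8.69 CPM. The cycling cluster of 12W spleen, cluster 10, had 0.332 CPM, from 1 UMI, so its pair in 28W spleen was higher by a log2 ratio of 2.86 (interval 1.70 to 3.29). In kidney the levels were more even, from 1.22 CPM in the cycling cluster 11 to 7.81 in cluster 4, led by *Ltb4r1*, *Cd163l1* and *Ly6g5b*. Clusters 7 and 9 of 28W spleen had no *Il2ra* UMI, and the limit of 3 counts used for a count of 0 is 1.10 and 6.87 CPM there. Single clusters decided the library ratio by age, which was -0.37, but 0.20 without cluster 7 of 12W spleen and -0.93 without cluster 6 of 28W spleen. The ratio by organ, 0.36, was 0.92 without that last cluster.

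*Il21r*, the receptor chain for IL-21, a cytokine of helper T cells, was at 126, 107 and 136 CPM. Its log2 ratio was -0.24 by age (interval -0.30 to -0.18) and 0.34 by organ (interval 0.28 to 0.41). Apart from the low-RNA cluster 8, at 383 CPM, its clusters in 12W spleen lay between 90.0 and 153 CPM. Kidney cluster 1 had 160.3 CPM against 119 in its pair, cluster 2 of 28W spleen, and the interferon-stimulated kidney cluster 6 had 165 against 89.0 in spleen. The lowest level in kidney, 34.7 CPM, was in cluster 12, with neutrophil and myeloid genes.

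*Il4ra*, the receptor chain for IL-4, was lower in each library in turn. In the order 12W spleen, 28W spleen and kidney it was at 49.9, 28.9 and 20.2 CPM, a log2 ratio of -0.76 by age (interval -0.88 to -0.65) and -0.50 by organ (interval -0.64 to -0.35). In 12W spleen the low-RNA cluster 8 had 161 CPM, and the next were cluster 9, led by *Nrgn*, *Eno3* and *Hivep3*, at 68.8 and the *Xcl1* cluster 7 at 65.6. The lowest were the cycling cluster 10, at 25.2 CPM, and the *Ccl5* cluster 2, at 25.3. In kidney the highest was the cluster with B cell genes, cluster 8, led by *Cd79a*, *Ebf1* and *Ly6d*, at 44.6 CPM and with 20.6% of the *Il4ra* UMIs. The summed B cell markers were 2953 CPM in that cluster, and their part in its *Il4ra* level was not tested. Without clusters of other cell types the library level in kidney was 19.2 CPM. Of the paired clusters, 5 of 6 were lower by age, 3 of them with an interval below 0, and 4 of 5 lower by organ, 2 of them so.

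*Il6ra*, the binding chain for IL-6, and *Il6st*, its signalling chain, differed in opposite directions with age. *Il6ra* went from 19.7 CPM at 12W to 35.01 at 28W in spleen, a log2 ratio of 0.80 (interval 0.67 to 0.94). *Il6st* was at 45.6 and 25.6 CPM, a log2 ratio of -0.81 (interval -0.93 to -0.69). In kidney both were lower than in 28W spleen, *Il6ra* at 13.5 CPM with a log2 ratio of -1.32 (interval -1.47 to -1.16) and *Il6st* at 11.9 CPM with -1.05 (interval -1.22 to -0.88). The *Il6st* value crossed below 2-fold under several settings, and was -0.83 without cluster 3 of 28W spleen, -0.91 without kidney cluster 1 and -0.98 without kidney cluster 11. The *Il6ra* value stayed past 2-fold without any 1 cluster, between -1.53 and -1.15.

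Some spleen clusters held the 2 chains in opposite order. In 12W spleen *Il6st* was at 80.9 CPM in the *Sox4* cluster 1, which held 32.2% of its UMIs, and lowest at 19.1 CPM in the *Ccl5* cluster 2. *Il6ra* was at 15.1 CPM in the former and 41.5 in the latter, the reverse order. In 28W spleen the *Sox4* cluster 3 had 46.6 CPM of *Il6st* and 19.1 of *Il6ra*, and cluster 5, led by *Itgb1*, *Ctla4* and *Gm2682*, had 23.6 and 64.8. The low-RNA clusters differed from these, since cluster 8 of 12W spleen and cluster 11 of 28W spleen had the most of both, with 263 and 123 CPM of *Il6st*. In kidney the highest *Il6ra* and *Il6st*, 66.5 and 29.9 CPM, were both in cluster 12, whose summed neutrophil markers were 18216 CPM.

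*Il6st* was lower at 28W in 6 of 6 paired clusters by age, although in 3 of these the interval reached above 0. The *Sox4* clusters had 80.9 and 46.6 CPM (log2 ratio -0.78, interval -1.01 to -0.56). *Il6ra* was higher in 5 of 6 pairs, but in none of the 6 did the interval leave out 0. By organ, *Il6ra* was 33.3 CPM in cluster 2 of 28W spleen and 4.70 in kidney cluster 1, 6.02-fold lower (log2 ratio -2.59, interval -3.14 to -2.05). Between the interferon-stimulated clusters it was 58.1 and 5.17 CPM, 9.58-fold lower. *Il6ra* was among the 3 leading genes of cluster 6 of 12W spleen, together with *Il7r* and *Sh3bp5*.

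*Il18r1*, the binding chain for IL-18, and *Il18rap*, its accessory chain, were both higher at 28W in spleen. The log2 ratio by age was 1.48 for *Il18r1* (interval 1.35 to 1.62) and 1.30 for *Il18rap* (interval 1.07 to 1.52). Among all genes tested by age, 99.2% had a lower ratio than *Il18r1* and 98.9% a lower one than *Il18rap*. By organ the chains parted, with *Il18r1* at 38.8 CPM in kidney and a log2 ratio of -0.29 (interval -0.40 to -0.19), and *Il18rap* at 22.8 CPM and 0.70 (interval 0.53 to 0.86). Without clusters of other cell types the *Il18r1* ratio by organ was 0.03. *Il18rap* fell short of 2-fold by age, at 0.90, with a pseudocount of 5 CPM, and at 0.97 with clusters weighted equally.

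In 12W spleen 1 cluster held the largest share of both chains. The *Ccl5* and *Gzmk* cluster 2, with 16.2% of cells, held 47.8% of the *Il18r1* UMIs and 49.7% of the *Il18rap* UMIs, at 70.7 and 22.2 CPM. The median cluster there had 11.2 CPM of *Il18r1* and 2.72 of *Il18rap*. In 28W spleen the median cluster had 54.9 and 15.8 CPM, and 6 clusters, numbers 1, 2, 4, 5, 9 and 11, were between 54.9 and 89.6 CPM of *Il18r1*. The *Sox4* cluster 3 and the cycling cluster 6 stayed low, at 7.69 and 10.4 CPM. Without cluster 2 of 12W spleen the log2 ratio by age was 2.19 for *Il18r1* and 1.94 for *Il18rap*, and without cluster 2 of 28W spleen 1.25 and 1.03.

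For *Il18r1* the log2 ratio by age was smaller than that of the libraries in 5 of 6 paired clusters. The *Ccl5* and *Gzmk* clusters had 70.7 CPM of *Il18r1* at 12W and 89.6 at 28W (log2 ratio 0.34, interval 0.12 to 0.56), and 22.2 and 28.0 CPM of *Il18rap* (0.32, interval -0.06 to 0.72). The *Sox4* clusters had 11.8 and 7.69 CPM of *Il18r1*, a log2 ratio of -0.55. The 2 low-RNA clusters showed the largest ratio, 1.93, from 21.1 to 83.1 CPM of *Il18r1*, which in 12W spleen rests on 6 UMIs. By organ, *Il18r1* was 3.70-fold lower in kidney cluster 1 than in cluster 2 of 28W spleen and 3.07-fold lower between the interferon-stimulated clusters. *Il18rap* was 1.33-fold lower in the former pair and 1.83-fold higher in the latter. The highest *Il18r1* and *Il18rap* in kidney, 87.8 and 43.9 CPM, were in the low-RNA cluster 10, led by *Gm42418*, *Rnf213* and *Gm11127*.

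**Figure D3:**
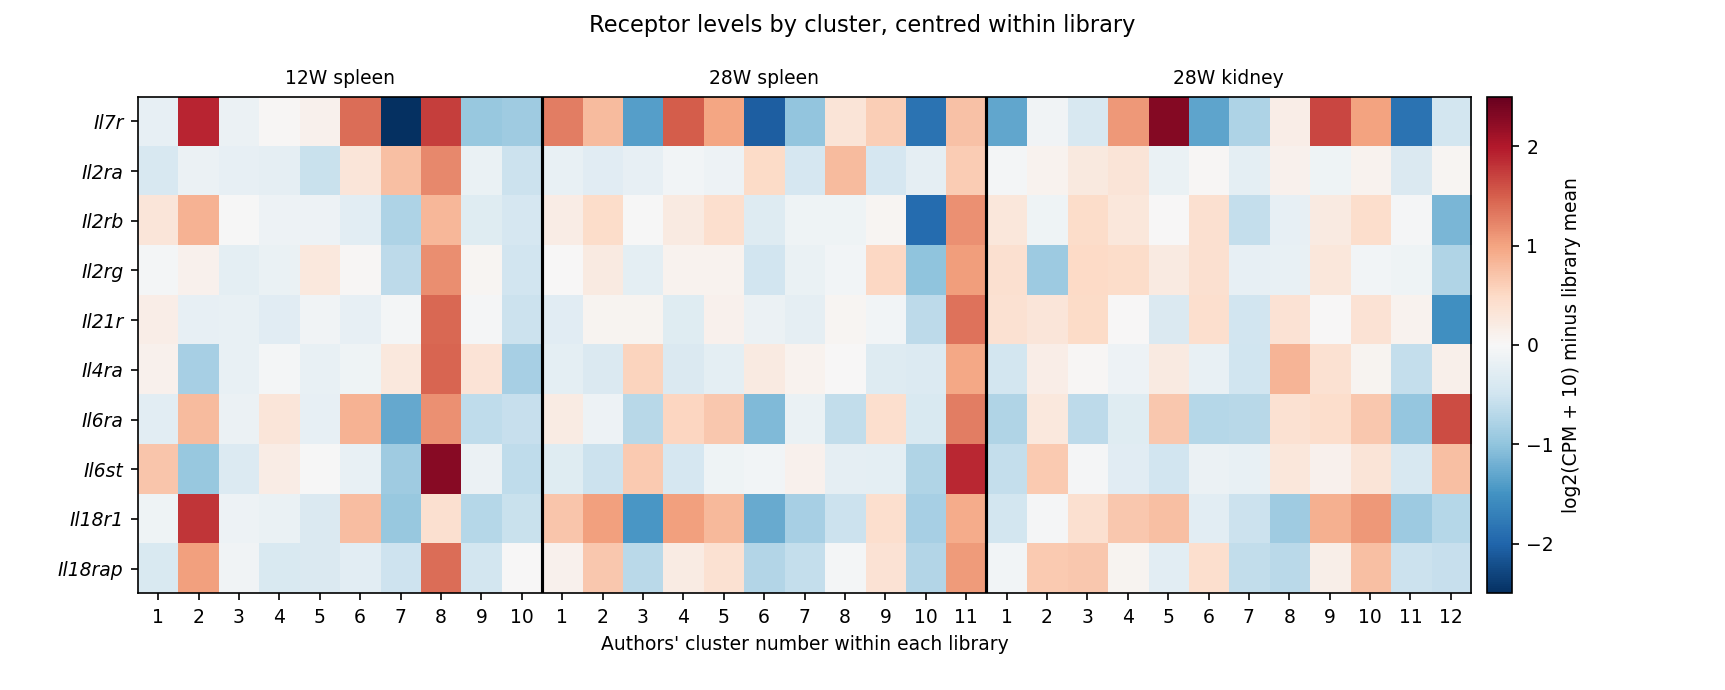
Levels of the 10 receptor genes in each cluster as log2(CPM + 10) minus the mean over the clusters of the same library, with the colour scale ending at 2.5 in either direction and black lines between libraries. *Il7r*, *Il6ra* and *Il18r1* are high together in clusters 2 and 6 of 12W spleen, clusters 1, 4 and 5 of 28W spleen and clusters 5, 9 and 10 of kidney, and low in the cycling clusters.

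The pattern over the 33 clusters was alike for some receptor genes and unlike for others. Pearson's r between log2(CPM + 10), centred within each library, was 0.85 for *Il7r* with *Il18r1*, 0.75 for *Il7r* with *Il6ra* and 0.75 for *Il18r1* with *Il18rap*. It was 0.79 for *Il2rb* with *Il2rg*, 0.79 for *Il4ra* with *Il6st*, 0.75 for *Il2rb* with *Il18rap* and 0.63 for *Il2rb* with *Il18r1*. *Il4ra* with *Il18r1* had -0.11 and *Il6st* with *Il18r1* 0.02. Clusters share a library, a depth and a base composition, so these values describe the 33 clusters and carry no p. The r of *Il7r* with *Il18r1* was 0.86 within the 12W library, 0.92 within 28W spleen and 0.79 within kidney. That of *Il6ra* with *Il18r1* was 0.83, 0.82 and 0.23 in the same order. *Il4ra* with *Il6st* rested in part on low-RNA clusters, with 0.59 without the 7 of them, and the 2 chains of the IL-6 receptor had 0.49, or 0.24 without them.

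**Figure D4:**
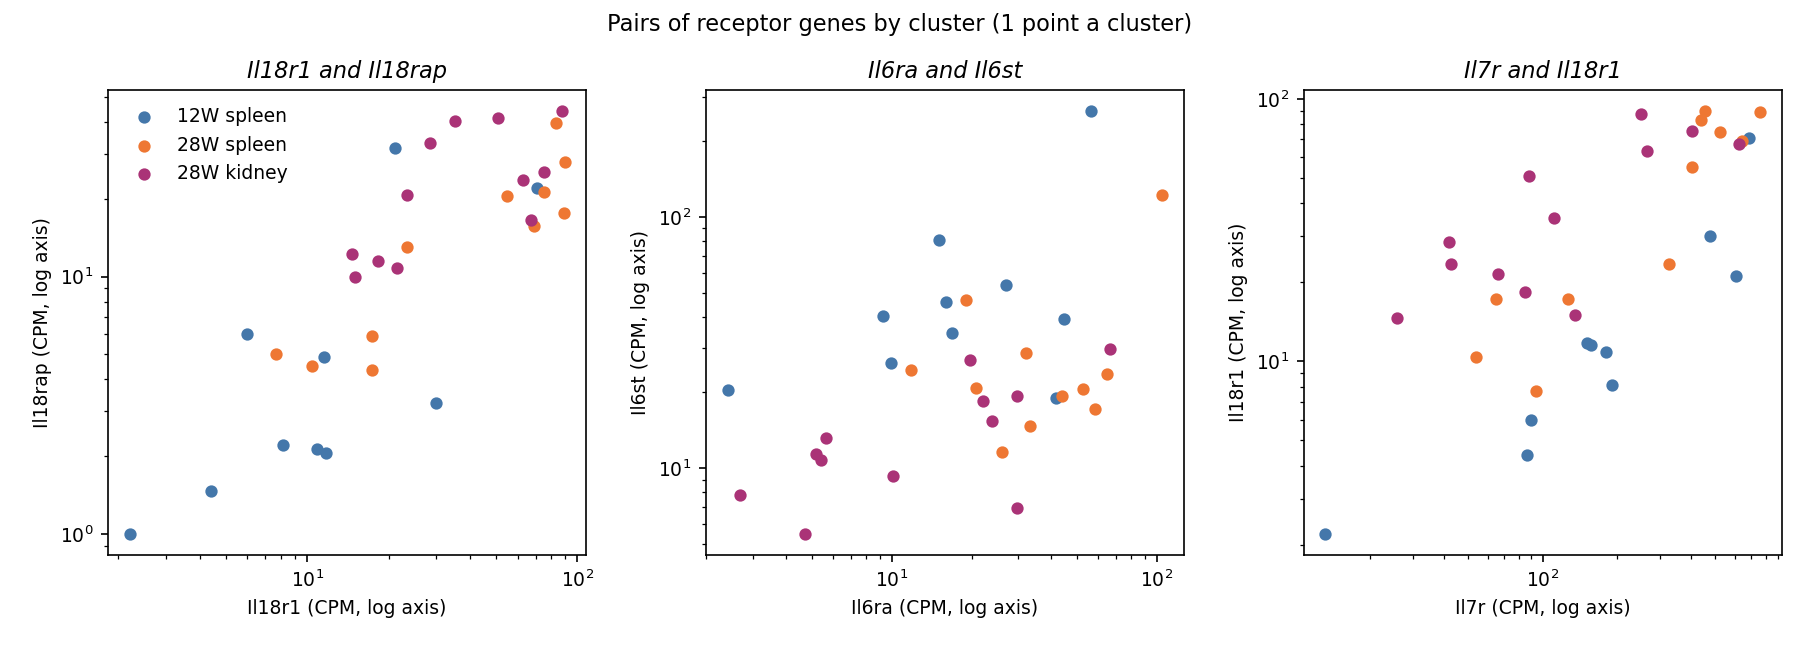
CPM of 3 pairs of receptor genes (both axes logarithmic), 1 point for each of the 33 clusters, coloured by library. *Il7r* and *Il18r1* rise together from the cycling clusters and the *Xcl1* cluster to most of those at 400 CPM of *Il7r* and above, whereas *Il6ra* and *Il6st* scatter. Clusters 8 and 6 of 12W spleen lie apart, with 607 and 477 CPM of *Il7r* and 21.1 and 30.0 of *Il18r1*.

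**Figure D5:**
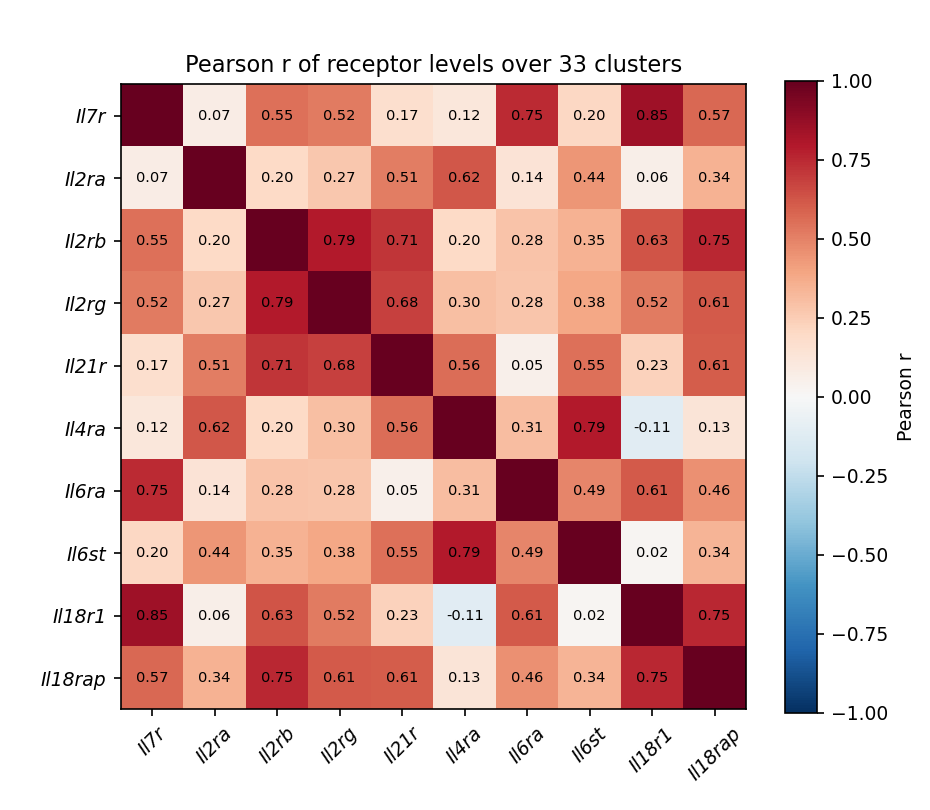
Pearson's r between the 10 receptor genes over 33 clusters, from log2(CPM + 10) centred within library, with red for positive and blue for negative values. Values run from -0.11 for *Il4ra* with *Il18r1* to 0.85 for *Il7r* with *Il18r1*.

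The receptors also differed in the gene programs they followed over clusters. *Il4ra* and *Il2ra* had r of 0.77 and 0.72 with the summed activation genes (*Nr4a1*, *Egr1*, *Egr2*, *Tnfrsf9*, *Xcl1* and *Cd69*), and *Il4ra* had -0.46 with the cytotoxic genes. *Il18r1* had 0.63 with the cytotoxic genes, but 0.78 within each spleen library and 0.20 within kidney. The activation value of *Il2ra* was likewise uneven, at 0.72 within 12W spleen, 0.90 within 28W spleen and 0.35 within kidney. *Il2rg*, *Il18rap* and *Il2rb* had 0.80, 0.79 and 0.77 with the tissue residency genes (*Cxcr6*, *Itgae*, *Itga1*, *Rgs1* and *Zfp683*). Within kidney they had 0.69, 0.67 and 0.76. The residency sum, *Il2rg* and *Il18rap* were all highest in the low-RNA cluster 8 in 12W spleen and the low-RNA cluster 11 in 28W spleen. The r values with gene lists were not recomputed without such clusters. *Il7r* had -0.42 with the proliferation genes, the lowest value of any receptor and that list. Within 12W spleen, 28W spleen and kidney it was -0.16, -0.49 and -0.65. *Il7r* had 0.48 with the memory genes, and 0.59, -0.01 and 0.74 within the libraries in the same order. With the cytotoxic genes *Il7r* had 0.43, and 0.57, 0.78 and -0.20 within the libraries.

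Of 6685 genes at 10 CPM or more in each library, those most like each receptor over the 33 clusters were ranked by the same r. For *Il7r* they were *Il18r1* (0.85), *Arl4c* (0.82) and *Tdrp* (0.82), and for *Il18r1* they included *Slco3a1* (0.86) and *Il7r* (0.85). *Il4ra* was most like *Bach2* (0.92), a repressor of effector genes, and *Foxp1* (0.88), a factor of T cell quiescence, with *Rnf19a* next. Both *Il4ra* and *Bach2* were highest in the low-RNA cluster 8 of 12W spleen and cluster 11 of 28W spleen. In kidney both were highest in cluster 8, with B cell genes. The ranking was not recomputed without such clusters for any receptor. *Il6st* followed *Sptbn1* (0.94), *Rabgap1* and *Mbtd1*, and *Il6ra* followed *Sgms1* (0.86), *Klf3* and *Mtus1*. *Il2rb* followed *Cd28* (0.88), *Cers4* and *Ctsw*, *Il2rg* followed *H2-Q10* (0.90), *Cd164* and *Arl6ip5*, and *Il21r* followed *Cdk17* (0.91), *Cd6* and *Ptpn22*. *Il18rap* followed *Sntb2* (0.91), *Ppp1r12a* and *AU020206*, and the sparse *Il2ra* followed *Larp4* (0.80), *Gtf2h2* and *Slc7a5*.

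Another 73 genes of these pathways were listed as receptors, signalling proteins, feedback inhibitors, ligands, regulators and targets. By age 61 had enough UMIs, of which 3 were at least 2-fold higher and 1 lower, where the shares of all genes were 1.84% and 0.935%. By organ 66 had enough, with 9 higher and 3 lower, where the shares of all genes were 8.77% and 1.23%. None of the 11 JAK and STAT genes passed 2-fold in either comparison. None of 7 genes of the MyD88 pathway, which carries the IL-18 signal, did so either.

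*Socs3*, a feedback inhibitor of gp130 signalling, had the largest ratio of these genes by age. Its levels were 10.6 CPM at 12W, 58.2 at 28W and 54.6 in kidney, a log2 ratio of 2.35 by age. Its highest clusters were cluster 2 of 12W spleen, cluster 1 of 28W spleen, which is led by *Il7r*, and kidney cluster 8, with B cell genes, which held 52.3% of its kidney UMIs. *Socs1*, an inhibitor of JAK kinases, was at 29.1 and 68.3 CPM by age. *Cish*, an inhibitor induced by STAT5, was at 9.40 CPM in 28W spleen and 38.7 in kidney, a log2 ratio of 1.93.

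Of other receptor chains, *Il15ra*, which presents IL-15 to the beta and gamma chains, went from 3.89 CPM at 12W to 9.77 at 28W in spleen. *Il12rb1*, a chain of the IL-12 receptor, was at 6.12 CPM in 28W spleen and 17.8 in kidney. *Ifngr2*, the signalling chain of the interferon gamma receptor, was at 8.35, 2.998 and 7.22 CPM in the 3 libraries, and 42.1% of its kidney UMIs were in cluster 12, with neutrophil and myeloid genes. Among the ligands *Il2* reached 6.51 CPM in kidney, from 1.69 in 28W spleen.

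Of 10 transcriptional regulators of T cell memory and effector states, 3 were at least 2-fold lower in kidney and 1 was higher, beside 1.23% and 8.77% of all genes. *Klf2*, which keeps T cells in circulation, was at 1133 CPM in 28W spleen and 323 in kidney. *Tcf7* was at 207 and 76.9 CPM, and *Id3* at 135 and 66.1. *Id2*, of effector cells, was at 135 and 477 CPM, the opposite direction. *Bcl2l1*, a survival gene, was at 6.46 and 14.7 CPM, while *Bcl2*, a target of IL-7 signals, was at 74.7 and 45.5 CPM, which did not reach 2-fold. The part of tissue digestion in these kidney values was not tested.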

How the data were processed

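Single-cell RNA sequencing libraries were made by the authors with a 10x Genomics 5′ chemistry, and the submitters' processing notes name Cell Ranger 2.1.1 and R 3.6.1. The methods name GRCm38. Cell filters and the treatment of doublets are not given in the sources used here, and the tables by cluster do not allow doublets to be called. The deposited values are the mean UMI count per cell of each gene in each cluster, scaled by size factors and pooled over the 4 samples of a group. The deposited log2 fold changes and adjusted p-values of the authors were not used.

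Groups were read from titles, which for 28W spleen differ from an age label of 12 weeks. Each column held whole multiples of the value of 1 UMI, and dividing by it gave whole numbers for 100% of values within 0.001. These UMIs were summed over clusters and scaled to CPM, since the 3 tables were normalized separately. Ratios used a pseudocount of 1 CPM, cluster patterns 10 CPM, and genes needed 20 UMIs over both libraries to be tested. With 1 library per group no p-value was computed, and intervals (Poisson for levels, binomial for ratios) do not cover variation between mice. PCR and mapping errors are not covered either.

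A cluster was taken to carry other cell types where summed markers of B cells, myeloid cells, neutrophils, tubule or red cells reached 300 CPM and 10 times the median cluster. Named genes were the 10 receptors, the 3 genes most like each over clusters, other pathway genes past 2-fold and at 5 CPM or more, and the 3 leading genes of each cluster singled out. *Bcl2* was named after its values were seen. Some genes that met these rules are not reported here. The receptors and all gene lists were chosen with earlier results of these data known, and cluster pairs were formed after the data were seen. Recovery of 200 changed genes was tested on Poisson counts simulated over 18992 genes, and 100% had the right direction in each comparison. The changes were 2-fold, in genes of at least 200 UMIs, with no variation between mice and 1 profile for all clusters. This checks the calculation only. Analyses used Python 3.11.15, numpy 2.4.6, pandas 2.3.3 and scipy 1.17.1, with figures from matplotlib 3.10.9. Clonotypes are not analysed here.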

Additional observations from a re-analysis of the deposited data

How the results depend on the processing

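The 10 receptors were recomputed under 9 other settings, and leaving out each cluster in turn was added after seeing the data. The count past 2-fold by age, 2, was 1 with a pseudocount of 5 CPM and 1 with clusters weighted equally, and 2 to 4 without 1 cluster. The count by organ, 3, was 2 or 3 under the 9 settings and 1 to 3 without 1 cluster. The receptors' median by age, 0.06, was 0.15 when scaled to the median gene, -0.014 with the deposited means averaged over cells and 0.11 without the deepest cluster, and -0.011 to 0.15 without 1 cluster. The median by organ, -0.16, was -0.25 when scaled to the median gene, -0.32 with a total lacking T cell receptor, immunoglobulin, mitochondrial and ribosomal protein genes and 0.071 without clusters of other cell types, and -0.28 to -0.010 without 1 cluster. Receptors past 4-fold between clusters numbered 4 in 28W spleen and 2 in kidney by the limits of the counting intervals, and in kidney 4 with a pseudocount of 5 CPM and 2 without clusters of other cell types. Without low-RNA clusters r was 0.24 for *Il6ra* with *Il6st* and 0.59 for *Il4ra* with *Il6st*. The cause of each of these shifts was not tested. No called ratio of a receptor changed sign under any of these alternatives. No paired analysis was possible because the tables pool the 4 samples of a group. Leaving out a sample was not possible for the same reason. Depth limits *Il2ra* most, with 104 to 156 UMIs a library.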
